A study of Saccharomyces cerevisiae with 136 samples.

Results

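The 34 nuclear genes described here encode the NADH dehydrogenases, complex III, cytochrome c, complex IV and the ATP synthase of the budding yeast Saccharomyces cerevisiae, and were followed through the replicative aging of single cells. They were taken by name from the deposited table of 5997 genes, whether or not they changed, and comprise 3 NADH dehydrogenases, 8 subunits of complex III, 2 forms of cytochrome c, 9 subunits of complex IV and 12 genes of the ATP synthase. Wild-type haploid cells of the BY4742 background were grown on SD agar plates, were picked by microdissection at 2, 16 or 36 h of age, and each gave 1 Smart-seq2 library. Of the 136 cells listed, 125 had values, 37 in the 2-h (young), 43 in the 16-h (early age) and 45 in the 36-h (late age) age group. The labels name no culture or plate, so each age group counted as 1 sample, and the SDs below describe the spread among cells. The 2 older groups were split at their mean number of generations, 8.81 and 17.4, into slow-dividing (S) and fast-dividing (F) subgroups, of 17 and 26 cells at the early age (16-h/S and 16-h/F) and 18 and 27 at the late age (36-h/S and 36-h/F). The generation of each cell came from the study's sheet of cells, not from the deposited labels. It was 1 for every 2-h cell, 5 to 12 at 16 h and 8 to 22 at 36 h. The titles of all 136 samples name BY4741, whereas the strain field names BY4742. The alpha-cell pheromone gene MF(ALPHA)1 had reads in 65 of 125 cells, the a-cell receptor gene STE2 in 1 and the a-cell gene BAR1 in 9. LYS2, which is deleted in BY4742, had reads in 5.

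The respiratory chain of the mitochondrial inner membrane passes electrons from NADH to oxygen. Budding yeast has no proton-pumping complex I, and single-protein NADH dehydrogenases on the inner and outer faces of the membrane feed electrons to coenzyme Q instead. Complex III hands them on to cytochrome c and complex IV to oxygen, both moving protons, and the ATP synthase uses the returning protons to make ATP. On glucose, such as in SD medium, this yeast mostly ferments and holds the genes of the chain down. The Hap2/3/4/5 complex, which binds CCAAT boxes, activates many of them when glucose runs low.

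The measure was the log2 normalized count, in which a gene's reads are scaled by the cell's size factor and 1 is added before the log2 is taken, so that no reads give the value 0. The median cell had 263709 reads on genes, the shallowest 40883 and the deepest 833501. The lowest value among the cells was 0 for all of the 34 genes in every age group, and the median cell was at 0 for 20 of them among the 2-h cells and for 16 in each older group. No reads on a gene means that it was not detectable at the depth of that cell. A cell had reads on 2 to 30 of the 34 genes, with means of 15.3 ± 4.34 (SD, n = 37), 17.98 ± 5.74 (n = 43) and 17.9 ± 6.58 (n = 45) in order of age. With every cell thinned to 40000 reads, the means were 12.7, 15.7 and 16.2. Together the genes took a median of 2744, 3389 and 4061 RPM (reads per 1000000 reads on genes) at the 3 ages, and the ranges over cells, 1020 to 6930, 1268 to 7160 and 502 to 10107, overlapped. Of the 34 genes, 33 had reads in at least 10% of the cells, as did 5439 of all genes, against which the counts below are read. The exception was NDE2, with reads in 4 of 125 cells. A cell had reads on a mean of 37.8, 42.6 and 40.2% of the 5439 genes in order of age. For the 34 genes these means were 45.1, 52.9 and 52.7%. The median share of spike-in reads in a cell was 0.39, 0.24 and 0.31 at the 3 ages. The part of detection and spike-in share in the differences between the ages was not tested. No gene of the set overlapped another annotated gene, and no 50-base stretch of its coding sequence occurred elsewhere in the genome.

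The promoters are shown first, because the CCAAT box is the feature most of these genes are known for. Windows of 300 bases, from 250 before the start codon to 50 within the gene, were read from the RefSeq copy of the R64 genome. The motif TNATTGGT, searched on both strands, was present in 15 of the 34 windows (44.1%), against 345 of 6001 windows of all genes (5.75%). It was found in 6 of 12 genes of the ATP synthase, 5 of 9 of complex IV, 2 of 8 of complex III, 2 of 3 NADH dehydrogenases and neither cytochrome c gene. TNATTGGT is narrower than the CCAAT box alone. A window without a match to it can still hold CCAAT or its complement ATTGG, as those of QCR2, QCR9 and COX5A do. Windows with the shorter box were not counted. Sites farther than 250 bases before the start codon lie outside the windows and were not searched, so a gene without a match can still have one there. The stress response element AGGGG, which Msn2 and Msn4 bind, was in 15 of the 34 windows and 21.6% of all, and ATTGTT, the core of the site of the hypoxic repressor Rox1, in 16 (47.1%) and 35.2% of all. These matches describe letters, and binding was not measured. The matches to TNATTGGT in the 9 genes with a match whose mean log2 value was higher by at least 1 at 36 h than at 2 h are printed on the coding strand, 5′ to 3′, with the match in capitals, on either strand, and 10 bases on each side where the window holds them. They lie at chrXIII:30018-30045 (NDI1, minus strand), chrIV:1496713-1496740 (QCR7, minus), chrV:107010-107029 (RIP1, plus), chrIX:155139-155166 (COX5B, plus), chrVII:144585-144612 (COX13, plus), chrXVI:408917-408944 (ATP4, minus), chrXI:408150-408177 (ATP7, minus), chrXII:722554-722581 (ATP14, minus) and chrXVI:29935-29962 (ATP15, plus).
NDI1: attcattcggACCAATCAtatgaaggca
QCR7: tcttgttttgACCAATCAggagcgacgc
RIP1: ggACCAATCAgcgttttgcg
COX5B: taaacaatagACCAATTAtttcaattta
COX13: tttttttcccACCAATGAgaggcggtac
ATP4: tcaatattgaACCAATCAcgacgctttt
ATP7: taaaagatacACCAATTAccacttgctg
ATP14: ccatacacgaACCAATTAtgcatcataa
ATP15: ttttatacgaACCAATGAaatttgatcc
These 9 matches begin 73 (COX5B) to 248 (RIP1) bases before the ATG, and in all 9 the motif TNATTGGT lies on the strand opposite to the gene.

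The windows of the 4 genes that encode alternative forms of cytochrome c and of subunit V of complex IV are printed in full, because the balance within these pairs differed between the groups. Capitals mark every match to the 3 motifs on either strand. The windows are at chrX:526085-526384 (CYC1, plus strand), chrV:79928-80227 (CYC7, minus), chrXIV:531475-531774 (COX5A, plus) and chrIX:154972-155271 (COX5B, plus) of R64.
CYC1: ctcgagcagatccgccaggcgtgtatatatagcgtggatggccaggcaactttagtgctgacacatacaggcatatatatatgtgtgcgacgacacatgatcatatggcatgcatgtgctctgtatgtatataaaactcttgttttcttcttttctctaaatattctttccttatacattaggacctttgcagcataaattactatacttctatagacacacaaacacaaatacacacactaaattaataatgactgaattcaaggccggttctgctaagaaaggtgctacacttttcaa
CYC7: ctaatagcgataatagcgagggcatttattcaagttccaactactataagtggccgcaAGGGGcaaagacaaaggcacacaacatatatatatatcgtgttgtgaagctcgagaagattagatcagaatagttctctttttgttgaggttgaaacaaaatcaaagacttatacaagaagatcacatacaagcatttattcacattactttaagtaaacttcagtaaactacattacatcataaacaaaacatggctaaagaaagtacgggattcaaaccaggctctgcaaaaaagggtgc
COX5A: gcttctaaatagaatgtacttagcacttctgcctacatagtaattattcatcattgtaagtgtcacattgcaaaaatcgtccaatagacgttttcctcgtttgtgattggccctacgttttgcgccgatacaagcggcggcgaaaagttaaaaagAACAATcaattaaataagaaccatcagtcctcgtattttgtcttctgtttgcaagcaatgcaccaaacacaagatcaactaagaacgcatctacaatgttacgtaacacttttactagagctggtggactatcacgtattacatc
COX5B: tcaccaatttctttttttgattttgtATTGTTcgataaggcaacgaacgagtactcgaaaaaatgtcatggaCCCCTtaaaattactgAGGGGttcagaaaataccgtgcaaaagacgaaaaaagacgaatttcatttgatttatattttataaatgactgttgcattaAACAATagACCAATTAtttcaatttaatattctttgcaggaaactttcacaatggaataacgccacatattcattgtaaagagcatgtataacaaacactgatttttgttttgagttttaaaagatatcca
COX5B held 1 match to TNATTGGT, 2 to AGGGG and 2 to ATTGTT, COX5A 1 to ATTGTT, CYC7 1 to AGGGG, 192 bases before its ATG, and CYC1 none of the 3.

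Per kilobase of coding sequence, the levels of the 34 genes spanned from 660 RPM at ATP15, the epsilon subunit of the ATP synthase, to 7.50 at NDE2, as means over all 125 cells. QCR8, a small subunit of complex III, followed with 559, COX9 of complex IV with 455 and ATP7, a stalk subunit of the ATP synthase, with 452. The 2 forms of cytochrome c had 114 (CYC1) and 64.4 (CYC7) RPM per kilobase. NDI1, the NADH dehydrogenase facing the matrix, had 18.8, NDE1, which faces the intermembrane space, had 75.5, and the iron-sulfur subunit RIP1 of complex III had 50.3. ATP2, the catalytic beta subunit, was the gene with reads in most cells, 114 of 125 (91.2%, exact Clopper-Pearson 95% interval 84.8 to 95.5%, which covers counting error only).

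The first comparison asked how the genes of the chain differed between young cells and cells of late age. Counting a gene as higher or lower when its mean log2 normalized count differed by at least 1, 14 of the 34 genes were higher at 36 h than at 2 h and 0 were lower, while 20.1% of all 5439 genes were higher and 10.9% lower. The difference was above 0 for 27 of the 34 (79.4%), beside 62.8% of all genes. Its median was 0.70, beside 0.25 over all genes. Complex III held the largest share of the higher genes, 6 of 8, followed by 4 of 12 for the ATP synthase and 2 of 9 for complex IV, with 1 of 3 NADH dehydrogenases and 1 of the 2 cytochrome c genes. In cells, the mean over the 34 genes was 2.02 ± 0.62 (SD, n = 37) at 2 h and 2.75 ± 1.07 (n = 45) at 36 h, with ranges of 1.04 to 3.32 and 0.30 to 5.59 that overlapped. The probability that a 36-h cell drawn at random exceeded a 2-h cell was 0.741. The 72 cells of these groups with a share of spike-in reads of at most 0.5 were also compared alone. The median difference of the 34 genes was then 1.07, beside 0.30 over all genes, of which 23.1% were higher. With a pseudocount of 10 and all cells, the number of higher genes was 2 instead of 14, beside 6.97% of all genes. Among the 1905 genes with a mean log2 value of at least 2 over all cells, 29.4% were higher and 21.6% lower, with a median of 0.24. Of the 34 genes, 19 pass this filter themselves.

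**Figure D1:**
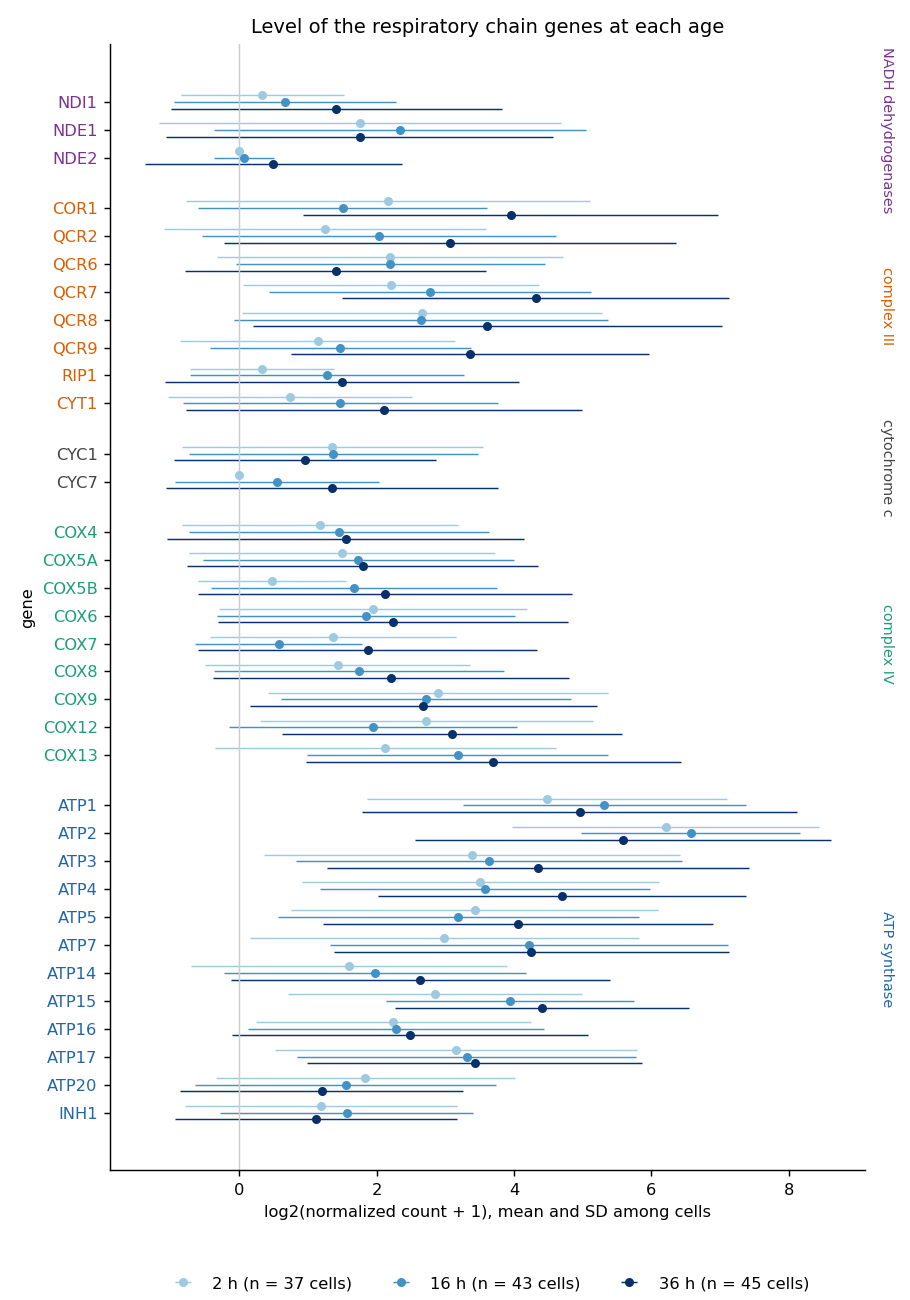
Mean log2(normalized count + 1) of each of the 34 genes (x axis) in each age group (37, 43 and 45 cells from young to late), with genes on the y axis grouped by complex and bars giving 1 SD among cells. The SDs of the age groups overlap for every gene, and the shift at 36 h is clearest in complex III, where QCR9 went from a mean of 1.14 to 3.36.

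The plot of means by age shows how wide the spread among cells was beside these shifts. In complex III the median difference of 36 h minus 2 h was 1.58. The largest belonged to QCR9 (YGR183C), a small subunit needed for a stable complex, with means of 1.14 ± 2.00, 1.47 ± 1.90 and 3.36 ± 2.61 at the 3 ages. Its median cell stood at 0, 0 and 4.23 and its highest cell at 6.43, 5.62 and 7.74, so that the groups overlapped throughout. QCR9 had reads in 10 of 37 cells (27.03%, interval 13.8 to 44.1%) at 2 h and 31 of 45 (68.9%, 53.4 to 81.8%) at 36 h, and after thinning in 21.6 and 64.4% of cells. The core subunit COR1 (YBL045C) was at 2.17 ± 2.94, 1.50 ± 2.1 and 3.95 ± 3.03 at the 3 ages, with medians of 0, 0 and 5.14 and highest cells at 7.72, 6.15 and 8.27. Its difference of 16 h minus 2 h was thus -0.67, and its difference of 36 h minus 16 h, 2.45, was the largest of the 34 genes in that comparison. The other core subunit QCR2, the small subunit QCR7, cytochrome c1 (CYT1) and the iron-sulfur protein RIP1 were higher at 36 h than at 2 h by 1.16 to 2.104. QCR8 stood at 0.95. QCR6, an acidic subunit near the site where cytochrome c docks, went the other way, with means of 2.19 ± 2.52, 2.20 ± 2.25 and 1.40 ± 2.20, medians of 0, 2.36 and 0 and highest cells at 7.16, 6.84 and 7.86. It was the gene with the lowest difference of the set, -0.79.

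**Figure D2:**
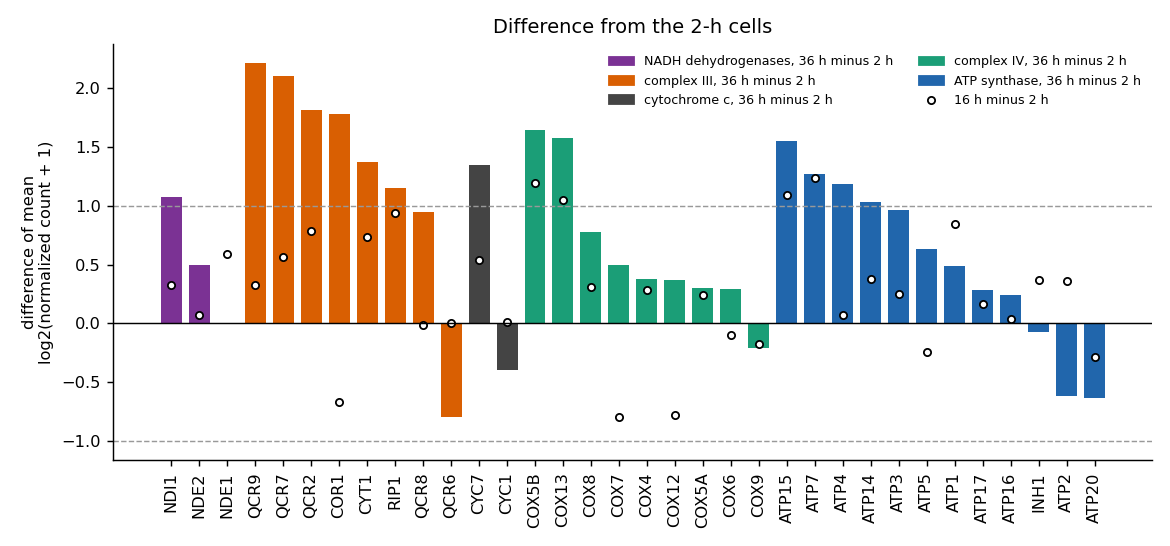
Difference of mean log2(normalized count + 1) from the 2-h cells (y axis) for each of the 34 genes (x axis), with bars for 36 h coloured by complex and open circles for 16 h; both use the same 37 cells at 2 h, and dashed lines mark 1 and -1. The bars of 14 genes pass 1 and none passes -1, with 6 of the 14 in complex III.

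Among the NADH dehydrogenases, NDI1 was higher at 36 h and the genes facing the intermembrane space did not move together. NDI1 (YML120C) had means of 0.33 ± 1.18, 0.66 ± 1.62 and 1.41 ± 2.41 in order of age, which differed by 1.08 between the outer ages. Its median cell was at 0 at every age and its highest at 6.31, 7.43 and 6.79, and it had reads in 4, 8 and 13 cells. NDE1 (YMR145C) had means of 1.75 ± 2.93, 2.34 ± 2.71 and 1.75 ± 2.82, with medians of 0, 1.06 and 0 and highest cells at 9.02, 8.27 and 8.93. NDE2, its paralog, had reads in 0 of 37, 1 of 43 and 3 of 45 cells, and 0 of 37 cells allows a share of up to 8.11%, taking 3 cells as the limit that a count of 0 allows. None of its 4 cells had reads on NDE1. The coding sequences of NDE1 and NDE2 were 64% identical with a longest shared run of 11 bases.

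Cytochrome c, the carrier between complexes III and IV, is encoded by CYC1, the main aerobic form, and CYC7, a minor form known for its induction at low oxygen and under stress. CYC7 (YEL039C) had 0 reads in the 37 cells at 2 h, 195 reads in 6 of 43 cells at 16 h and 814 reads in 12 of 45 cells at 36 h. Its mean was 0, 0.54 ± 1.49 and 1.35 ± 2.42, its median 0 throughout and its highest cell 0, 5.91 and 6.81. The shares of cells were 0% (0 of 37, up to 8.11% by the limit of 3 cells and 9.49% by the exact interval), 13.95% (interval 5.30 to 27.9%) and 26.7% (14.6 to 41.9%), and 0, 13.95 and 22.2% after thinning. Since no 2-h cell had reads on CYC7, the size of its difference depends on the pseudocount. CYC1 went the other way between the outer ages, with means of 1.35 ± 2.19, 1.37 ± 2.1 and 0.95 ± 1.91, medians of 0 and highest cells at 6.96, 7.31 and 6.25. Of all reads per coding length on the pair, CYC7 took 0% at 2 h, 22.6% at 16 h and 74.4% at 36 h. As a mean over the cells with at least 10 reads on the pair (10, 11 and 13 cells), its share was 0, 27.5 and 52.5%. At 36 h, 9 cells had reads on CYC7 alone, 7 on CYC1 alone, 3 on both and 26 on neither, and 1 cell gave 17.7% of the CYC7 reads. The coding sequences were 77.0% identical. Their longest shared run, 35 bases, lies at chrX:526560-526594 in CYC1 and chrV:79706-79740 in CYC7 and is shown because only reads confined to such a stretch fit both genes.
CYC1 and CYC7: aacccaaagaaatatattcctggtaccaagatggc

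**Figure D3:**
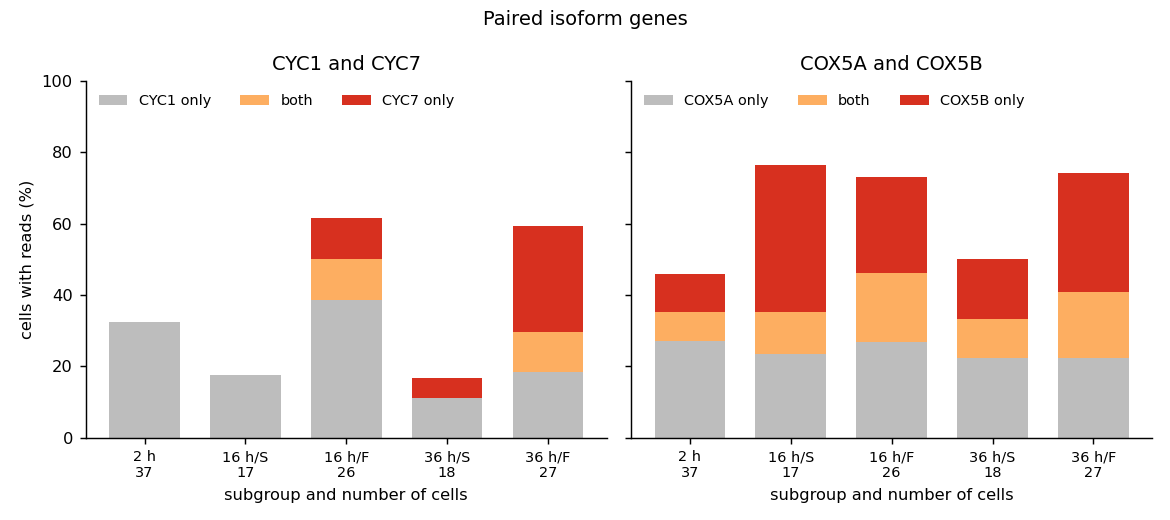
Share of cells (y axis, percent) with reads on the first gene only, on both or on the second gene only, for CYC1 and CYC7 and for COX5A and COX5B, in the 2-h cells and the S and F subgroups (x axis, with the number of cells). CYC7 is missing at 2 h and in 16-h/S, where 0 of 37 and 0 of 17 cells had reads, and COX5B appears in every subgroup.

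Complex IV passes electrons to oxygen. Of its 9 nuclear subunits, 8 had a difference of 36 h minus 2 h above 0, beside 62.8% of all genes. However, 7 of the 9 stayed within 1 and the median was 0.38. The subunit with the largest difference, 1.65, was COX5B, the form of subunit V that replaces COX5A at low oxygen. COX5B (YIL111W) was at 0.47 ± 1.08, 1.66 ± 2.08 and 2.12 ± 2.72 at the 3 ages, with a median of 0 throughout and highest cells at 4.15, 7.54 and 7.02. It had reads in 7 of 37 cells (18.9%, interval 7.96 to 35.2%), 21 of 43 (48.8%, 33.3 to 64.5%) and 19 of 45 (42.2%, 27.7 to 57.8%), and in 10.8, 39.5 and 40% of the thinned cells. COX5A differed little, with 1.49 ± 2.23, 1.73 ± 2.26 and 1.79 ± 2.56, medians of 0 and highest cells at 6.18, 6.68 and 7.76. Of all reads per coding length on COX5A and COX5B, COX5B took 18.8% at 2 h, 41.2% at 16 h and 49.8% at 36 h, although 1 cell gave 48% of its reads at 2 h. The plot of the isoform pairs shows that most cells with reads on a pair had reads on only 1 of its genes. COX13, a regulatory subunit, was at 2.13 ± 2.49, 3.18 ± 2.19 and 3.70 ± 2.74, with medians of 0, 3.85 and 4.59, highest cells at 7.38, 6.73 and 8.38 and a difference of 1.57 between the outer ages. COX9, a short membrane subunit and among the most abundant genes of the set, had the lowest difference of complex IV, -0.21, with 2.89 ± 2.48, 2.72 ± 2.11 and 2.68 ± 2.53, medians of 3.04, 3.21 and 3.28 and highest cells at 6.65, 6.90 and 7.87.

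The ATP synthase joins F1, which holds the catalytic subunits, to a membrane part through stalks, and its genes differed within each part. The means over the 5 genes of F1, counted here with the central stalk subunits ATP3, ATP15 and ATP16, were 3.83 at 2 h and 4.36 at 36 h. Over the 6 remaining stalk and membrane subunits they were 2.75 and 3.38. The epsilon subunit ATP15 (YPL271W) had the largest difference of 36 h minus 2 h, 1.55, with means of 2.85 ± 2.14, 3.94 ± 1.80 and 4.40 ± 2.14, medians of 3.15, 4.09 and 4.97 and highest cells at 7.23, 7.50 and 7.53. For ATP15 the probability that a 36-h cell exceeded a 2-h cell was 0.710. Beside it, the stalk subunits ATP4, ATP7 and ATP14 were higher by 1.04 to 1.27. ATP7 was already at 4.22 ± 2.90 at 16 h and at 4.25 ± 2.88 at 36 h, from 2.98 ± 2.83 at 2 h, with medians of 5.25, 4.92 and 2.64 and highest cells at 9.19, 8.31 and 7.77. Of the 5 genes counted in F1, only ATP15 passed 1. The beta subunit ATP2 differed by -0.62 and the alpha subunit ATP1 by 0.48. ATP20, a subunit of the membrane part needed for dimers of the enzyme, had the lowest difference, -0.63, with 1.83 ± 2.18, 1.54 ± 2.19 and 1.20 ± 2.06, medians of 0.95, 0 and 0 and highest cells at 6.71, 7.87 and 6.79. INH1, the inhibitor that keeps the enzyme from hydrolysing ATP, was at 1.19 ± 1.98, 1.56 ± 1.84 and 1.11 ± 2.05, with medians of 0, 0.66 and 0 and highest cells at 6.21, 6.02 and 7.62.

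Of the 14 genes higher at 36 h, 9 had a match to TNATTGGT in their window, those printed above, as did 6 of the other 20. The median difference was 1.08 over the 15 genes with a match and 0.48 over the 19 without. The 5 higher genes without a match were COR1, QCR2, QCR9, CYT1 and CYC7, so 4 of the 5 belonged to complex III. These counts were not tested and concern TNATTGGT only, since the windows of QCR2 and QCR9 hold CCAAT without a match to it.

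At 16 h, fewer of the genes differed from 2 h. COX5B, COX13, ATP7 and ATP15 were higher by at least 1 (1.05 to 1.24) and 0 of the 34 lower, beside 9.12% higher and 4.87% lower of all genes, with a median of 0.30 beside 0.12. The largest differences below 0 were those of COX7 (-0.80), COX12 (-0.78) and COR1 (-0.67). Both comparisons with 2 h share the same 37 young cells, so their values are not independent. Between 16 h and 36 h, 7 genes were higher and 0 lower by at least 1, beside 11.9% and 7.10% of all genes, and 4 of the 7 were of complex III. The mean over the genes of complex III in a cell was 1.59 ± 0.82, 1.92 ± 1.103 and 2.91 ± 1.57 in order of age, with a probability of 0.771 that a 36-h cell drawn at random exceeded a 2-h cell. For complex IV the means were 1.73 ± 0.80, 1.87 ± 0.74 and 2.36 ± 1.31, and for the ATP synthase 3.07 ± 0.88, 3.43 ± 0.81 and 3.597 ± 1.20. The SD among 36-h cells was the largest of the 3 ages for each complex. Daughter and cell separation genes also differed with age, all 5 on the list (DSE1, DSE2, CTS1, EGT2 and SCW11) being higher at 16 h than at 2 h by at least 1, with means of 0 to 0.53 at 2 h, 1.53 to 3.03 at 16 h and 0.72 to 1.70 at 36 h. SCW11 was at 0 in every 2-h cell, and the part of these genes in the result was not tested. With all cells scaled to the same sum of reads, 4 genes were higher and 2 lower at 36 h than at 16 h, beside 8.48% and 11.03% of all genes, whose median was -0.03.

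**Figure D4:**
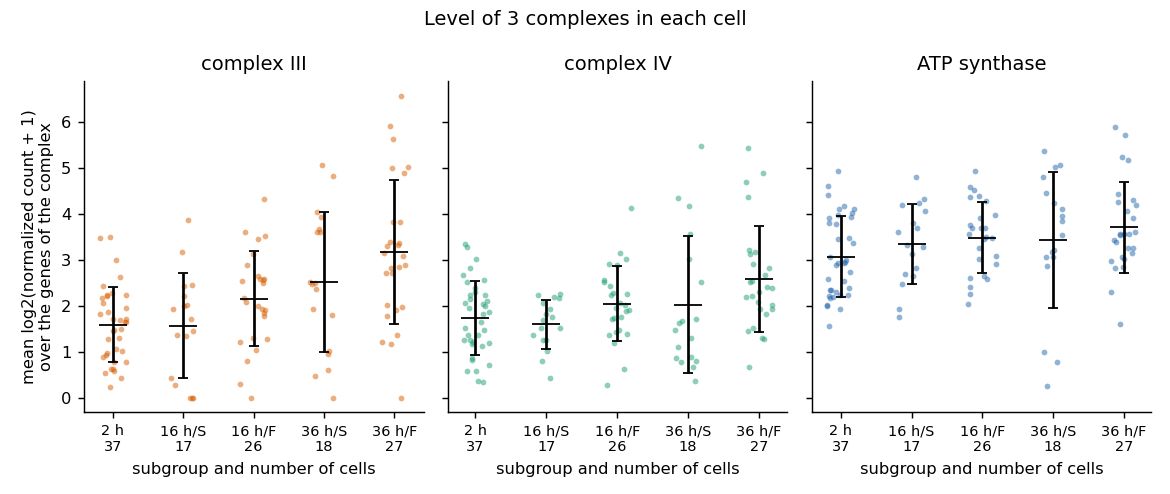
Level of each cell, averaged as log2(normalized count + 1) across the 8 subunits of complex III, the 9 of complex IV and the 12 of the ATP synthase (y axis), for the 2-h cells and the S and F subgroups (x axis, with the number of cells). Black bars give the mean and 1 SD; complex III reached a mean of 3.17 in 36-h/F and 2.52 in 36-h/S, from 1.59 at 2 h.

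Genes around the chain were followed in lists by function. The 4 genes of complex II (SDH1 to SDH4), which feeds electrons from succinate, were all below their 2-h level at 16 h, with a median of -0.51. Over all genes that median was 0.12, and 58.1% of them were above 0. At 36 h all 4 genes of complex II were above their 2-h level, and SDH3 (1.007) and SDH4 (1.12) passed 1. Between 16 h and 36 h all 4 were higher, by 1.19 to 1.49, beside 11.9% of all genes higher by at least 1. Of 7 small or accessory subunits outside the 34 genes, STF1 and STF2 were higher at 36 h. STF1 and STF2, which stabilise the inhibited ATP synthase with INH1, went from 1.20 ± 1.93 to 4.04 ± 2.32 and from 0.93 ± 1.78 to 4.996 ± 2.69, while INH1 itself had a difference of -0.07. For the assembly of complex IV, 6 of 20 genes were higher at 36 h, 0 lower and all 20 above 0, led by the copper chaperone COX17 (1.77 ± 1.96 to 4.01 ± 2.59), COA3 and COX15. For complex III and cytochrome c, 4 of 7 assembly genes were higher, led by the haem lyase CYC3, and for the ATP synthase 2 of 7, ATP11 and FMC1. Of 11 genes of coenzyme Q synthesis, 5 were higher, led by COQ6 (0.69 ± 1.77 to 2.84 ± 3.35). Of 6 carriers and porins only POR1, the pore of the outer membrane, was higher, and of 6 regulators (HAP1 to HAP5 and ROX1) none, with the activating subunit HAP4 at 0.97 ± 2.21 at 2 h and 1.91 ± 2.44 at 36 h. Of 5 subunits encoded in mitochondrial DNA, whose transcripts lack poly(A) tails in this yeast, OLI1 (1.38) and COB (1.09) were higher at 36 h. Of 3 genes of the retrograde response, which signals poor mitochondrial function to the nucleus, CIT2 (2.13) and DLD3 (1.28) were higher. No gene of these lists was lower by at least 1 at 36 h than at 2 h. In that comparison 20.1% of all genes were higher, 10.9% lower and 62.8% above 0. Of the 3 alpha-cell genes, MF(ALPHA)2 (-1.34) and STE3 (-2.23) were lower at 36 h, and their part in the result was not tested.

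The S and F subgroups compare cells of the same age that had divided less or more often. At 16 h, 6 of the 34 genes were lower in S by at least 1 and 2 higher, beside 12.3% and 3.93% of all genes, with a median difference of S minus F of -0.32 beside -0.22. Among the 1905 genes with a mean log2 value of at least 2 over all cells, 19.5% were lower and 5.09% higher with a median of -0.33. Of the 34 genes, 17.6% were lower. Only 19 of the 34 pass that filter themselves, and COX4, RIP1 and INH1 do not, so the sets are not alike. The lowest were COR1 (-2.08), COX4, a zinc-binding subunit of complex IV (-2.06), and INH1 (-1.41), followed by RIP1, COX6 and ATP3. COR1 was at 0.24 ± 0.69 in 16-h/S and 2.32 ± 2.31 in 16-h/F, with medians of 0 and 1.69, highest cells at 2.44 and 6.15, and reads in 2 of 17 cells (11.8%, interval 1.46 to 36.4%) and 15 of 26 (57.7%, 36.9 to 76.6%). COX4 was at 0.21 ± 0.62 and 2.27 ± 2.46, with medians of 0 and 1.33, highest cells at 2.21 and 6.18, and reads in 2 of 17 and 13 of 26 cells, or in 0 and 46.2% after thinning. The study named COR1 and COX4 between S and F on these same cells, so their differences are not independent evidence. INH1 was at 0.71 ± 1.33 and 2.12 ± 1.93, with medians of 0 and 1.78, highest cells at 3.76 and 6.02, and reads in 4 of 17 and 18 of 26 cells, which became 23.5 and 42.3% after thinning. On the other side stood ATP20 (1.49) and ATP7 (1.217), followed by COX8 at 0.70. ATP20 was at 2.45 ± 2.73 in 16-h/S and 0.95 ± 1.54 in 16-h/F, with medians of 1.40 and 0 and highest cells at 7.87 and 5.13, and ATP7 at 4.95 ± 3.12 and 3.74 ± 2.70, with medians of 5.57 and 4.82 and highest cells at 9.19 and 7.2. COX8, a small subunit of complex IV, was at 2.17 ± 2.48 and 1.46 ± 1.82, with medians of 1.89 and 0 and highest cells at 6.95 and 5.23. All of these subgroups overlapped.

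**Figure D5:**
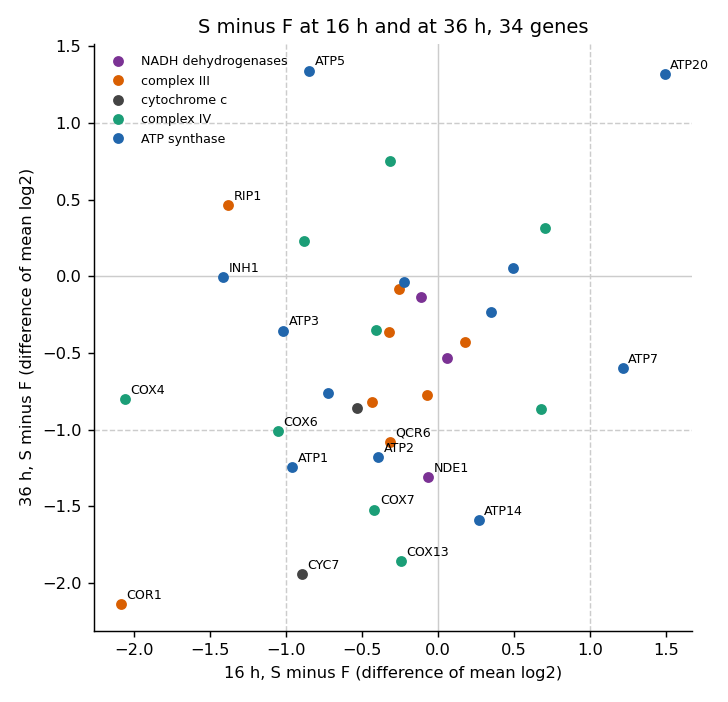
Difference of mean log2(normalized count + 1) of S minus F at 16 h (x axis) and at 36 h (y axis), each point a gene coloured by complex, with the names of genes that pass 1 or -1 (dashed lines) at either age. COR1 is lowest on both axes (-2.08 and -2.14) and ATP20 is above 1 on both (1.49 and 1.32).

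At 36 h, 10 genes were lower in S and 2 higher, beside 17% and 6.84% of all genes, and the median difference was -0.57 beside -0.20. Among the 1905 genes with a mean log2 value of at least 2 over all cells, 29.1% were lower and 7.40% higher in S with a median of -0.47. Of the 34 genes, 29.4% were lower, but only 19 of the 34 pass that filter themselves. CYC7, NDE1, QCR6 and COX7 are among those that do not. COR1 was again the lowest (-2.14), at 2.67 ± 2.99 in 36-h/S and 4.81 ± 2.78 in 36-h/F, with medians of 1.03 and 5.45, highest cells at 7.52 and 8.27, and reads in 9 of 18 and 22 of 27 cells. CYC7 followed (-1.94), at 0.18 ± 0.77 and 2.12 ± 2.82, with medians of 0, highest cells at 3.27 and 6.81, and reads in 1 of 18 (5.56%, interval 0.14 to 27.3%) and 11 of 27 cells (40.7%, 22.4 to 61.2%). At 16 h its reads were likewise in F, 6 of 26 cells against 0 of 17, which allows a share of up to 17.6% by the limit of 3 cells and 19.5% by the exact interval. CYC1 was at 0.44 ± 1.50 in 36-h/S and 1.30 ± 2.1 in 36-h/F, so both forms of cytochrome c were at a lower mean in S. COX13 came next (-1.86), at 2.58 ± 2.92 and 4.44 ± 2.37, with medians of 1.18 and 5.06 and highest cells at 7.45 and 8.38. NDE1, QCR6, COX6, COX7, ATP1, ATP2 and ATP14 had differences of -1.59 (ATP14) to -1.01 (COX6). COX4 was at 1.07 ± 2.47 and 1.87 ± 2.68, a difference of -0.80. The stator subunit ATP5, which binds the top of the catalytic head, was higher in S (1.34), at 4.86 ± 3.06 and 3.52 ± 2.61, with medians of 6.10 and 3.87 and highest cells at 8.78 and 7.71. ATP20 was higher in S here too (1.32), at 1.99 ± 2.72 and 0.67 ± 1.28, with medians of 0 in both and highest cells at 6.79 and 5.22. COX9 followed at 0.75, with 3.13 ± 2.99 and 2.38 ± 2.18, medians of 4.37 and 2.54 and highest cells at 7.87 and 5.39. The plot of S minus F at both ages shows that COR1, COX6 and ATP20 passed 1 in the same direction at 16 h and at 36 h.

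Depth moved with the subgroups. The median of reads was 199571 in 16-h/S against 277170 in 16-h/F and 186022 in 36-h/S against 325464 in 36-h/F, and the mean number of genes with reads was 2112 against 2505 and 1940 against 2421. Cells had reads on 15.4 of the 34 genes in 16-h/S and 19.7 in 16-h/F, and on 14.4 in 36-h/S and 20.3 in 36-h/F, and after thinning on 13.4, 17.2, 13.6 and 17.9. The part of depth in the differences between S and F was not tested. In cells with a spike-in share of at most 0.5, 12 of 17 in 16-h/S, 25 of 26 in 16-h/F, 13 of 18 in 36-h/S and 24 of 27 in 36-h/F, the median difference was -0.15 at 16 h and -0.21 at 36 h, beside -0.08 and -0.14 over all genes. With the log2 of the mean normalized count it was -0.14 and -0.07, beside 0.02 and 0.28.

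Across the 43 cells at 16 h, the mean over the 34 genes had a Pearson correlation of 0.16 with generation (Spearman 0.19), and of 0.05 to 0.26 when the 2 cells with the most extreme generation were left out, depending on which of 7 tied choices was taken. Across the 45 cells at 36 h it was 0.22 (Spearman 0.17), and 0.27 without the 2 cells. The number of genes with reads in the cell correlated with generation as well, at 0.28 and 0.47. Given that number, the correlation of the 34 genes was -0.09 at 16 h and 0.01 at 36 h. For the mean over all genes the correlation was 0.23 at 16 h and 0.30 at 36 h, and given that number -0.29 and -0.34. Each point is a cell with a library of its own depth, and whether cells share a culture is not given, so these values are descriptions. The correlation was above 0 for 23 of the 34 genes at 16 h and 25 at 36 h (67.6 and 73.5%), beside 60.2 and 62.3% of all genes. COR1 was the highest at 16 h (0.36, Spearman 0.39) and was at 0.35 (0.39) at 36 h, where CYC7 was the highest at 0.37 (0.39). The lowest were COX5B (-0.36, Spearman -0.27) at 16 h and ATP20 (-0.35, -0.13) at 36 h, and ATP20 was at -0.31 (-0.30) at 16 h. COX5B was at 0.07 at 36 h, so its relation at 16 h did not recur there.

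The levels of the complexes were correlated across cells at every age, with the highest values at 36 h. Between complexes III and IV the Pearson correlation took the values 0.37, 0.39 and 0.62 in order of age. Between complex III and the ATP synthase it was 0.34, 0.30 and 0.67, and between complex IV and the ATP synthase 0.37, 0.27 and 0.53. Given the number of genes with reads, the 3 pairs ranged from 0.16 to 0.23 at 2 h, from -0.08 to 0.13 at 16 h and from 0.44 to 0.61 at 36 h. Without the lowest and the highest cell of each age, which was chosen after seeing the data, they ranged from 0.28 to 0.35, 0.15 to 0.32 and 0.45 to 0.58. Cells share a library with all of their genes, so these correlations also carry what differs between libraries. The difference between the ages was not tested.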

How the data were processed

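The authors mapped the reads to yeast assembly R64 (HISAT2 2.1.0, SAMtools 1.1), counted them per gene with featureCounts, scaled each cell by a DESeq2 size factor and deposited the log2 of the scaled count plus 1. Cells with few genes or reads, or mostly spike-in reads, were removed by the authors, and 11 of the 136 cells had no values. The strand setting is not given in the sources used here. Once the log2 was undone, all 278228 values above 0 were whole multiples of 1 step per cell within 0.05, which gave the reads. Those reads served for thinning, RPM and isoform shares, and no count test was run, because the labels name no culture and cells are not replicates.

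The mean and SD over cells, the difference between group means (higher or lower by at least 1 on the log2 scale) and the probability that 1 random cell exceeds another were computed per gene with Python 3.11.15, numpy 2.4.6, pandas 2.3.3 and scipy 1.17.1, and plots with matplotlib 3.10.9. The scripts were tested on simulated data. All genes means the 5439 with reads in at least 10% of cells. A cell was S at or below the mean generation of its age group and F above, which matched the study's sheet for all 88 cells. Spike-in (ERCC) shares came from that sheet. Thinning drew 40000 reads per cell. The alternatives were a common sum per cell, low spike-in shares, thinning, a pseudocount of 10, the log2 of the mean and other filters on low genes. Coding sequences were aligned with Biopython 1.88. Gene names and coordinates came from the RefSeq annotation of R64, in which 5693 identifiers were found and 304 were not. Values were given in full for the isoform genes, INH1, COR1 and COX4, the genes with the largest and smallest difference of 36 h minus 2 h in each complex, and the 3 largest differences of S minus F in each direction. The genes and lists were chosen with earlier results of these data known. Protein sequences, and the mating and auxotrophy genes not in the table, are not analysed here.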

Additional observations from a re-analysis of the deposited data

How the results depend on the processing

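Of the main values under the alternatives, 137 were counted as unchanged and 42 as moved. All median differences kept their direction and were counted as unchanged, but several became much smaller. The median of 16 h minus 2 h was 0.070 with a pseudocount of 10, beside 0.30. That of S minus F at 36 h was -0.068 with the log2 of the mean, beside -0.57. Of the values of single genes, 844 were counted as unchanged, 5 as moved and 1 as reversed. The last was ATP1 in S minus F at 36 h, at 0.40 with the log2 of the mean normalized count. With cells scaled to the same sum, 4 genes were higher and 2 lower for 36 h minus 16 h, and the same counts, 4 and 2, were found with 40000 reads per cell, where 1 gene was lower for each of the comparisons with 2 h. For 36 h minus 16 h, 8.48% of all genes were higher and 11.03% lower under the first setting, and 8.71% and 10.4% under the second, where 5.15% were lower for 16 h minus 2 h and 12.6% for 36 h minus 2 h. In cells with a spike-in share of at most 0.5, 1 gene was lower for 36 h minus 16 h and 4 were higher for S minus F at 36 h, beside 7.63% and 9.80% of all genes. With a pseudocount of 10, the genes higher by at least 1 numbered 0 for 16 h minus 2 h, 2 for 36 h minus 2 h, 1 for 36 h minus 16 h and 0 for S minus F at both ages, where 0 and 1 were lower. Of all genes, 1.23, 6.97, 4.16, 0.46 and 1.93% were higher in these 5 comparisons, and 0.94 and 2.59% lower in S. With the log2 of the mean, 2 were lower for 16 h minus 2 h, 16 higher for 36 h minus 16 h, 7 higher for S minus F at 16 h, and 6 higher and 6 lower at 36 h, beside 14.6, 34.9, 18.7, 27.7 and 15.2% of all genes. Against the 1905 genes with a mean log2 value of at least 2, the counts of lower genes in S were near or below the background. The cause of these changes was not tested.

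Given the number of genes with reads, the correlation with generation at 16 h was -0.094 for the 34 genes, -0.089 for complex III, -0.064 for complex IV and -0.076 for the ATP synthase, and at 36 h it was 0.0067, 0.060, -0.022 and -0.12. With a spike-in share of at most 0.5 it was -0.070 for complex III at 16 h and -0.096 for the ATP synthase at 36 h, and with a pseudocount of 10 it was -0.047 and -0.072 for the ATP synthase at the 2 ages. As a mean over cells with at least 10 reads on the pair, CYC7 took 27.5% at 16 h and 52.5% at 36 h, and COX5B 46.02% and 52.6%. With 40000 reads per cell, CYC7 took 68.4% at 36 h and COX5B 14.4, 54.3 and 59.4% in order of age. With a spike-in share of at most 0.5, COX5B took 33.8% at 16 h and 46.1% at 36 h.

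No paired analysis was possible because each age group counted as 1 sample and the numbers in the labels only name cells. For the same reason leaving out a replicate was not run. Alternatives for the correlations between complexes were chosen after seeing the data. Depth limits all of these values, since 62.9% of the values in the table were 0, and a gene with few reads can be missed in a shallow cell. Plates, days and handling of the age groups cannot be told apart from age.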
